A study of Homo sapiens with 4 samples.

Results

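The RAB GTPases other than RAB5 were taken from the deposited gene table by rule: protein-coding genes whose name is RAB followed by a number and at most 1 letter, without RAB5A, RAB5B and RAB5C. The rule found 60 of the 58735 genes in the table. Their RNA-seq levels were compared in OVCAR8, a line of human ovarian cancer cells, between 2 shFAM49B and 2 shCON libraries. Cells of the shFAM49B group received GIPZ short hairpin plasmids against FAM49B, a gene whose protein binds the GTPase RAC1, and cells of the shCON group received a scrambled hairpin in the same vector system. Per the labels' protocols the cells took up the plasmids by lipofection and were harvested after 36 h, while the series' design text calls the knockdown stable. The sources used here do not give how many hairpins or clones stand behind a group. The design implies a single comparison, shFAM49B against shCON, and the study's title places it in MAPK signalling and the growth of ovarian cancer cells.

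RAB proteins are small GTPases that mark the membranes of the secretory and endocytic pathways. Bound to GTP they recruit effectors such as tethers, motor proteins and sorting adaptors, and bound to GDP they are extracted from the membrane by GDP dissociation inhibitors. Exchange factors load them with GTP, GTPase-activating proteins end the active state, and geranylgeranyl transferase attaches the lipid by which they hold to membranes. The members were sorted by the compartment in which each is best known to act: 25 secretory (endoplasmic reticulum, Golgi and exocytosis), 5 endocytic, 11 recycling, 8 late endosomal and lysosomal, and a remainder of 11 with ciliary, ubiquitin ligase or unsettled roles. A family member can act in more than 1 compartment, so the grouping is a convention.

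The promoter sequences of 5 members are shown because these genes had the largest fitted changes among members with a RefSeq entry: RAB3A and RAB4A upward, and RAB32, RAB25 and RAB9A downward. They are RefSeq sequences on GRCh38.p14, 5′ to 3′ on the gene's strand, and each window ends before the start of the gene in the deposited table. Capitals mark a GC box (GGGCGG or its reverse complement CCGCCC), an E-box (CACGTG) or a cAMP response element (TGACGTCA).
RAB3A, chr19:18204075-18204292, minus strand: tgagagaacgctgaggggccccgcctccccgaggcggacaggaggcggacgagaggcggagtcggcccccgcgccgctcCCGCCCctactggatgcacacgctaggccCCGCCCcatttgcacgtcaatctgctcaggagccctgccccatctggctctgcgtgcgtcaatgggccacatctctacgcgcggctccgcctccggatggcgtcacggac
RAB4A, chr1:229270861-229271061, plus strand: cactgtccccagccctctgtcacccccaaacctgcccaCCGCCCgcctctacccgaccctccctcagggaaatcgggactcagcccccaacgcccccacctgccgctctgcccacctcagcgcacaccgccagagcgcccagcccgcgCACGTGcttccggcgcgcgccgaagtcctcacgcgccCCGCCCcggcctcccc
RAB32, chr6:146543583-146543692, plus strand: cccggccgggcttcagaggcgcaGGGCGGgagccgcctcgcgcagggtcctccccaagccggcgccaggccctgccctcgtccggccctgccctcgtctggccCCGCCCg
RAB25, chr1:156060910-156061159, plus strand: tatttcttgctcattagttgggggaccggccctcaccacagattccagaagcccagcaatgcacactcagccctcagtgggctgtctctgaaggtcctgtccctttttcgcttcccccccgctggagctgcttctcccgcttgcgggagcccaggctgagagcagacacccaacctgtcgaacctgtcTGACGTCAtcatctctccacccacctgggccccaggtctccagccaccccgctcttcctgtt
RAB9A, chrX:13688878-13689124, plus strand: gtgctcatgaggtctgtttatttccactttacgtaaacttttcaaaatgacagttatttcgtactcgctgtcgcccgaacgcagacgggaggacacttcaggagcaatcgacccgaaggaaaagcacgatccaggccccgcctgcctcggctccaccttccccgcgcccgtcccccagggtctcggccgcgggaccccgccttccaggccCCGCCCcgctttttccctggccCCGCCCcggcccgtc
RAB3A, RAB4A, RAB32 and RAB9A each held 2 GC boxes in the window shown, whereas RAB25 held none and had a cAMP response element. RAB4A also held an E-box. Part of the RAB4A window, 53 bases, is annotated as exon of the neighbouring transcript AL162595.1. RefSeq promoters were found for 47 of the 60 members and for 27305 genes in all. The members are all protein-coding, whereas the 27305 genes outnumber the 19951 protein-coding genes of the deposited table and were not limited to that class. Over the 250 bases before the RefSeq start, on either strand, a GC box stood in 36 of the 47 member promoters (76.6%) and in 42.3% of all promoters. In the same windows the E-box stood in 4 members (8.51%) and in 6.49% of all promoters. The cAMP response element stood in 1 member (2.13%) and in 1.77% of all promoters. An AP-1 motif (TGANTCA) stood in 1 of the 47 members and in 6.60% of all promoters. A TEAD motif (GGAATG) stood in 6 members and 11.9% of all promoters, a CCAAT box (CCAAT) in 11 members and 33.0%, and a heat shock motif (GAANNTTC) in 0 members and 5.85%. The last 4 motifs were in none of the 5 windows shown, and no motif searched is contained in another. Member promoters had a median GC content of 64.8%, against 58.0% for all promoters.

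Depth was even, with 16288871 and 16290200 recovered reads in shFAM49B and 15639559 and 16875353 in shCON. Levels are FPKM as deposited, that is, reads divided by gene length in kilobases and by scaled depth. FAM49B stood at 1.06 and 1.02 FPKM in shFAM49B and at 7.41 and 7.60 FPKM in shCON (log2 fold change -2.06, SE 0.0807, limma adjusted p = 0.00054). Of 10 ovarian carcinoma markers, 5 (PAX8, SOX17, MUC16, MSLN and KRT7) stayed under 1 FPKM in every library, with SOX17 at 0, while KRT8 and KRT18 were present. The 8 markers of stratified epithelium were all lower in shFAM49B, with a summed level of 36.4 and 38.9 FPKM in shFAM49B, against 591 and 529 FPKM in shCON. Fibroblast markers summed to 6.35 and 7.00 FPKM in shFAM49B and to 6.41 and 6.85 FPKM in shCON, with 6 of 7 under 1 FPKM throughout. Endothelial and leukocyte markers summed to less than these, and 8 of their 9 genes were under 1 FPKM in every library.

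Among the 60 RAB genes, 42 reached a mean of 1 FPKM over the 4 libraries and were tested, and 18 did not. Of the 42, 6 rose in shFAM49B, 13 fell and 23 did not pass an adjusted p of 0.05 in limma, fitted on log2(FPKM + 1) across all 13775 genes of that level. The members that rose were 14.3% of those tested, against 26.4% of all tested genes. Those that fell were 31.0%, against 15.8% of all tested genes. Among those that fell, RAB25 and RAB32 reached a mean of 1 FPKM through shCON alone, so their entry favoured a fall. RAB genes called in either direction made up 45.2%, near the 42.2% of all tested genes. Both shFAM49B libraries lay above both shCON libraries for 10 of the 42 members, against 43.1% of all tested genes, and below them for 26 of the 42, against 31.6%. The median log2 fold change of the members was -0.12, against 0.05 for all tested genes. With 1 library left out the fit made fewer calls, both among the members and among all tested genes. Of the 19 called members, 8 (RAB2B, RAB3A, RAB4A, RAB9A, RAB21, RAB22A, RAB32 and RAB36) kept their call with each library left out in turn, and in every other alternative in which they were tested. In bulk samples, fewer cells of a type and less RNA per cell cannot be told apart.

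**Figure D1:**
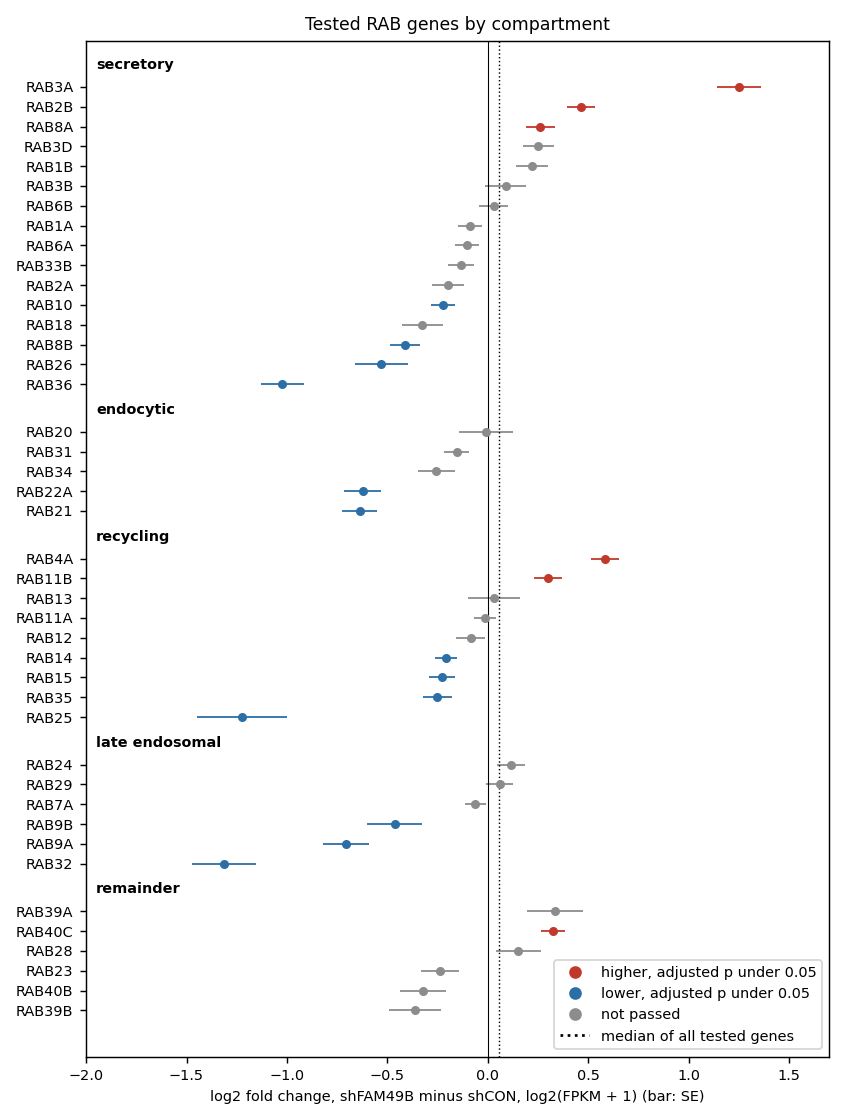
Log2 fold change (shFAM49B minus shCON, on log2(FPKM + 1)) with its SE for the 42 tested RAB genes, grouped by compartment and coloured by call. Points run from -1.31 for RAB32 to 1.25 for RAB3A, and the dotted line marks the median of all tested genes at 0.05.

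The split between higher and lower rested on the scaling of the libraries. As deposited, 62.7% of all called genes were higher in shFAM49B, against 26.8% when the values were turned into TPM and 29.2% when they were divided by each library's reads. These scalings moved the median of all tested genes by -0.22 and -0.18. Under either of them 3 members were higher and 26 lower, of 42 tested. Of all 13775 tested genes, 1597 were higher and 4362 lower in TPM, and 1722 and 4173 relative to library reads. At a mean of at least 5 FPKM 8 members were higher and 6 lower, of 26 tested, against 3187 and 1322 of 7756 genes. In TPM the log2 fold change was 0.365 for RAB4A and 0.268 for RAB2B, and -0.469 for RAB10 and -0.994 for RAB22A, smaller rises and larger falls than as deposited. TPM are larger numbers than FPKM here, so adding 1 before the logarithm shrinks the fold changes of low genes less. The part of this step in the changes was not tested. The median of the members stood below that of all tested genes under every alternative run, by 0.17 as deposited. The gap ran from 0.076 without the level filter to 0.27 after quantile normalization, and was 0.12 with the GC trend removed. The position of the family relative to other genes thus kept its direction, in alternatives that all draw on the same 4 libraries. Summed over the family, the deposited values came to 524 and 539 FPKM in shFAM49B and to 548 and 546 FPKM in shCON. As a share of all gene expression the same sums were 1800 and 1795 TPM in shFAM49B and 2182 and 2206 TPM in shCON.

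The secretory group had 16 tested members, of which 3 rose, 4 fell and 9 did not pass, with a median log2 fold change of -0.10. RAB3A, which acts in the regulated exocytosis of synaptic and endocrine vesicles, had the largest fitted rise among the tested members. It stood at 11.2 and 13.6 FPKM in shFAM49B and at 4.89 and 4.34 FPKM in shCON. Its groups were far apart, at 12.4 ± 1.65 and 4.62 ± 0.388 FPKM (SD, n = 2 each), a 2.68-fold difference (log2 fold change 1.25, SE 0.107, limma adjusted p = 0.00204). RAB3A lies on chromosome 19, 18196784 to 18204074 on the minus strand (GRCh38), where MPV17L2 overlaps it on the opposite strand. MPV17L2 averaged 11.6 FPKM in shFAM49B and 10.5 FPKM in shCON and did not pass (limma adjusted p = 0.181).

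RAB2B, a relative of the RAB2A protein that works between the endoplasmic reticulum and the Golgi, stood at 9.43 and 10.3 FPKM in shFAM49B and at 6.78 and 6.94 FPKM in shCON (1.44-fold, log2 fold change 0.46, SE 0.0695, limma adjusted p = 0.00626). Both shFAM49B libraries were above both shCON libraries. It lies on chromosome 14, 21459020 to 21476973 on the minus strand, and overlaps TOX4 on the other strand. TOX4 rose as well, averaging 12.4 FPKM in shFAM49B and 9.59 FPKM in shCON (limma adjusted p = 0.0117), and without a stated strand setting reads of the overlap cannot be told apart.

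RAB8A and RAB8B, which carry cargo from the Golgi and recycling endosomes to the plasma membrane and to the cilium, moved in opposite directions. RAB8A stood at 7.20 and 7.80 FPKM in shFAM49B and at 5.89 and 6.28 FPKM in shCON (1.23-fold higher, log2 fold change 0.26, limma adjusted p = 0.0382). RAB8B stood at 3.99 and 3.86 FPKM in shFAM49B and at 5.77 and 5.35 FPKM in shCON (1.42-fold lower, log2 fold change -0.41, limma adjusted p = 0.0106). Neither pair of groups overlapped, but the rise of RAB8A was lost in 10 of the 14 alternatives run, with a log2 fold change of 0.05 in TPM, whereas the fall of RAB8B was lost in 2 of 13, without the first shCON library (limma adjusted p = 0.0771) and without the second shFAM49B library (limma adjusted p = 0.0555). RAB8A did not pass with any 1 library left out (limma adjusted p 0.0639 to 0.181).

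RAB36, a Golgi RAB, had the largest fall of the secretory group. It stood at 1.62 and 2.07 FPKM in shFAM49B and at 4.71 and 4.82 FPKM in shCON, 2.58-fold lower (log2 fold change -1.02, SE 0.107, limma adjusted p = 0.00281). All libraries of the groups were well apart. Its gene is on chromosome 22, 23145326 to 23164350 on the plus strand. RAB26, a RAB of secretory granules, stood at 3.07 and 2.23 FPKM in shFAM49B and at 4.05 and 4.43 FPKM in shCON, 1.60-fold lower (log2 fold change -0.53, limma adjusted p = 0.0270). The shFAM49B libraries differed from each other, with the higher still below both shCON libraries. RAB10, which serves exocytosis and the insertion of transporters into the plasma membrane and was the second most abundant member, stood at 48.5 and 45.4 FPKM in shFAM49B and at 55.3 and 54.6 FPKM in shCON (1.17-fold lower, limma adjusted p = 0.0315). The call of RAB10 was lost with any library left out (limma adjusted p 0.0564 to 0.135), and that of RAB26 without either shCON library or the second shFAM49B library (limma adjusted p 0.0758 to 0.123).

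The most abundant secretory members that did not pass were those of the early secretory pathway and the Golgi. RAB1B, which with RAB1A directs transport from the endoplasmic reticulum to the Golgi, stood at 43.2 and 48.2 FPKM in shFAM49B and at 40.8 and 37.4 FPKM in shCON (limma adjusted p = 0.0783). RAB1A stood at 26.1 and 27.8 FPKM in shFAM49B and at 28.4 and 29.1 FPKM in shCON (limma adjusted p = 0.272). RAB6A, a RAB of the trans-Golgi, stood at 21.3 and 20.9 FPKM in shFAM49B and at 23.4 and 22.1 FPKM in shCON (limma adjusted p = 0.204). None of these 3 pairs of groups overlapped, yet none passed. The other 6 secretory members that did not pass were RAB2A, RAB3B, RAB3D, RAB6B, RAB18 and RAB33B, with log2 fold changes from -0.33 for RAB18 to 0.25 for RAB3D.

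All 5 endocytic members were tested: 2 fell, 3 did not pass, and the median log2 fold change was -0.26. RAB21, which binds integrin tails and takes part in their endocytosis, stood at 2.48 and 2.25 FPKM in shFAM49B and at 4.34 and 4.14 FPKM in shCON. It was 1.79-fold lower (log2 fold change -0.64, SE 0.0863, limma adjusted p = 0.00476), with tight replicates in both groups. RAB22A, an early endosome RAB for cargo that enters without clathrin, stood at 1.97 and 2.22 FPKM in shFAM49B and at 3.80 and 3.73 FPKM in shCON. It was 1.80-fold lower (log2 fold change -0.62, SE 0.0917, limma adjusted p = 0.00599). RAB21 is on chromosome 12, 71754874 to 71800285, and RAB22A on chromosome 20, 58309696 to 58367507, both on the plus strand.

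RAB31, the close relative of RAB22A that acts between the trans-Golgi and endosomes, stood at 17.4 and 19.0 FPKM in shFAM49B and at 20.3 and 20.4 FPKM in shCON (limma adjusted p = 0.107). RAB34, a RAB of macropinosomes and of early cilium formation, stood at 13.0 and 15.6 FPKM in shFAM49B and at 17.3 and 17.1 FPKM in shCON (limma adjusted p = 0.0737), and it passed in 8 of the 14 alternatives. RAB20, a RAB of maturing phagosomes, stood at 2.15 and 1.67 FPKM in shFAM49B and at 2.07 and 1.78 FPKM in shCON (limma adjusted p = 0.957). The groups were apart for RAB31 and RAB34 and overlapped for RAB20. Summed, the endocytic members came to 37.1 and 40.7 FPKM in shFAM49B and to 47.8 and 47.2 FPKM in shCON. For the RAB5 genes, which share the early endosome, RAB5B and RAB5C passed upward (log2 fold changes 0.34 and 0.24, limma adjusted p = 0.0119 and 0.0220), and RAB5A did not pass (limma adjusted p = 0.827). With the GC trend of each library removed RAB5C did not pass (log2 fold change 0.11, limma adjusted p = 0.128), while RAB5B did (0.25, limma adjusted p = 0.0215). VPS9D1, from the family of RAB5 exchange factors, stood at 50.0 and 52.3 FPKM in shFAM49B and at 4.31 and 5.05 FPKM in shCON.

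**Figure D2:**
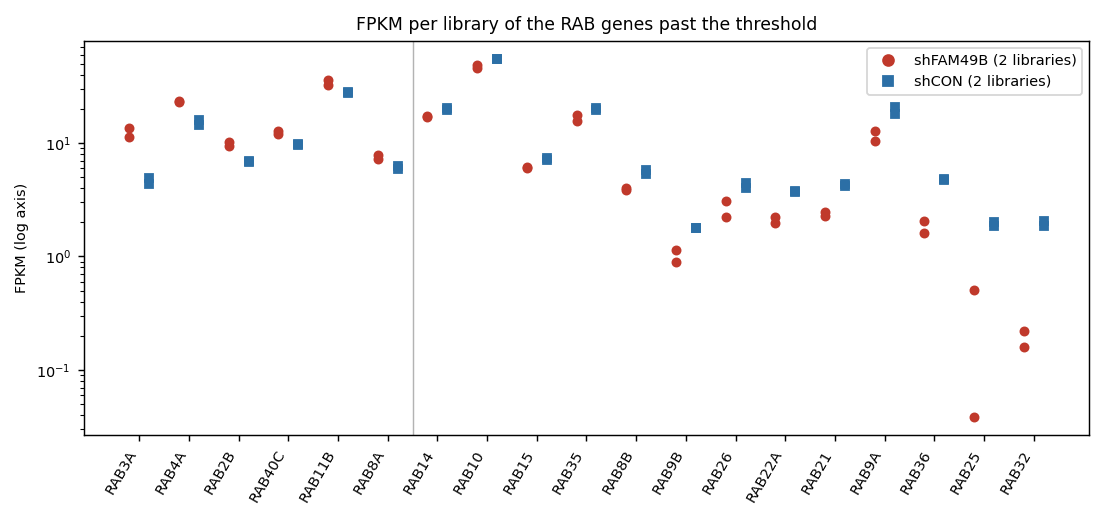
FPKM on a log axis in each library for the 19 RAB genes past the threshold, the 6 higher genes left of the grey line and the 13 lower genes right of it, with 2 shFAM49B libraries and 2 shCON libraries per gene. RAB32 and RAB25 lie under 1 FPKM in both shFAM49B libraries and near 2 FPKM in shCON, and the 2 shFAM49B libraries of RAB25 are wide apart, at 0.0384 and 0.511 FPKM.

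Of 9 tested recycling members, 2 rose, 4 fell and 3 did not pass, with a median log2 fold change of -0.09. The shares were 22.2% higher and 44.4% lower, against 26.4% and 15.8% of all tested genes. RAB4A, which returns cargo from early endosomes to the surface by the fast route, stood at 23.4 and 23.0 FPKM in shFAM49B and at 16.0 and 14.3 FPKM in shCON. It was 1.53-fold higher (log2 fold change 0.58, SE 0.0713, limma adjusted p = 0.00378), and the groups stood well apart. RAB4A is on chromosome 1, 229271062 to 229305894 on the plus strand, and shares 21.8% of its transcript with SPHAR, which is listed at 0 in every library. RAB11B, of the slow route through the recycling endosome, stood at 32.5 and 36.2 FPKM in shFAM49B and at 27.5 and 27.9 FPKM in shCON (1.24-fold higher, limma adjusted p = 0.0229). Its rise was lost in 8 of the 14 alternatives, with a log2 fold change of 0.06 in TPM and an adjusted p of 0.0795 to 0.0939 without either shCON library or the second shFAM49B library. RAB11A stood at 19.1 and 19.2 FPKM in shFAM49B and at 19.3 and 19.4 FPKM in shCON (limma adjusted p = 0.843).

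RAB25, the epithelial member of the RAB11 group, which recycles integrins and whose locus is often gained in ovarian cancer, stood at 0.0384 and 0.511 FPKM in shFAM49B and at 1.85 and 2.01 FPKM in shCON. It fell 7.01-fold in mean FPKM (log2 fold change -1.22, SE 0.226, limma adjusted p = 0.0112). The shFAM49B values rest on 1 and 13 reads, against 53 and 63 reads in shCON, and the ratio of the summed reads, scaled as deposited, was 0.141 (95% interval 0.0747 to 0.246, counting error only). The gene reached the level filter through shCON alone, and its call was lost without the filter (adjusted p = 0.0566) and without the second shCON library (adjusted p = 0.0527). The fall of RAB25 ran beside that of EPCAM, a surface protein of simple epithelia, at 0.129 and 0.345 FPKM in shFAM49B and 2.94 and 2.96 FPKM in shCON, and beside the 8 markers of stratified epithelium given above. EPCAM is 1 of the 10 ovarian carcinoma markers, and 4 of the others were tested. KRT8 and KRT18, keratins of simple epithelia, stood at 37.4 and 38.4 FPKM and at 24.1 and 23.2 FPKM in shFAM49B, against 41.7 and 39.2 FPKM and 28.0 and 27.7 FPKM in shCON (limma adjusted p = 0.271 for KRT8 and 0.0249 for KRT18). EMX2 rose, standing at 3.04 and 3.15 FPKM in shFAM49B and at 1.51 and 1.84 FPKM in shCON (limma adjusted p = 0.0099), and WT1 did not pass (limma adjusted p = 0.0924). The part of these markers in the RAB25 result was not tested.

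RAB35, a fast recycling RAB that also acts in cytokinesis, stood at 15.7 and 17.5 FPKM in shFAM49B and at 20.4 and 19.4 FPKM in shCON (1.20-fold lower, limma adjusted p = 0.0426). RAB14, which links endosomes and the Golgi, stood at 17.1 and 17.1 FPKM in shFAM49B and at 19.6 and 20.2 FPKM in shCON (1.17-fold lower, limma adjusted p = 0.0325). RAB15, a RAB of early and recycling endosomes, stood at 5.98 and 6.17 FPKM in shFAM49B and at 7.44 and 7.14 FPKM in shCON (1.20-fold lower, limma adjusted p = 0.0401). These 3 falls were small and did not overlap between groups, and each lost its call with any library left out (limma adjusted p 0.0519 to 0.196) and in the replicate block. RAB12 stood at 10.6 and 9.50 FPKM in shFAM49B and at 10.8 and 10.6 FPKM in shCON, and RAB13, a tight junction RAB, at 3.03 and 4.01 FPKM in shFAM49B and at 3.62 and 3.20 FPKM in shCON, and neither passed (limma adjusted p = 0.388 and 0.878). Summed, the recycling members came to 128 and 133 FPKM in shFAM49B and to 127 and 125 FPKM in shCON, but to 438 and 444 TPM in shFAM49B and 504 and 503 TPM in shCON, so the order of the groups turned with the scaling.

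Of 6 tested late endosomal members, 3 fell and 3 did not pass, with a median log2 fold change of -0.26. The shares were 0% higher and 50.0% lower, against 26.4% and 15.8% of all tested genes. RAB32, which with RAB38 delivers enzymes to melanosomes and other lysosome-related organelles, stood at 0.161 and 0.220 FPKM in shFAM49B and at 2.05 and 1.87 FPKM in shCON. It was 10.3-fold lower (log2 fold change -1.31, SE 0.158, limma adjusted p = 0.00365), the largest fitted fall among the tested members. These values rest on 3 and 4 reads in shFAM49B and 42 and 42 reads in shCON, a scaled ratio of 0.0972 (95% interval 0.0379 to 0.209), and the gene reached the level filter through shCON alone. RAB32 lies on chromosome 6, 146543693 to 146554965 on the plus strand.

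RAB9A, which returns mannose 6-phosphate receptors from late endosomes to the trans-Golgi, stood at 12.7 and 10.4 FPKM in shFAM49B and at 18.1 and 20.9 FPKM in shCON. It was 1.68-fold lower (log2 fold change -0.71, SE 0.116, limma adjusted p = 0.00797), a fall larger than the spread in either group. Its paralog RAB9B stood at 0.887 and 1.14 FPKM in shFAM49B and at 1.77 and 1.77 FPKM in shCON (1.75-fold lower, limma adjusted p = 0.0430), a call that was lost in 8 of 13 alternatives, among them each that left a library out (limma adjusted p 0.0617 to 0.133). Both genes are on the X chromosome, RAB9A at 13689125 to 13710506 on the plus strand and RAB9B at 103822322 to 103832228 on the minus strand.

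RAB7A, the main RAB of late endosomes and lysosomes and the most abundant member, stood at 63.4 and 64.1 FPKM in shFAM49B and at 65.7 and 67.5 FPKM in shCON (limma adjusted p = 0.375). RAB29, which recruits the kinase LRRK2, stood at 20.5 and 21.3 FPKM in shFAM49B and at 20.9 and 19.3 FPKM in shCON (limma adjusted p = 0.509). RAB24, linked to autophagy, stood at 6.13 and 6.28 FPKM in shFAM49B and at 5.48 and 5.81 FPKM in shCON (limma adjusted p = 0.223). RAB24 shares 51.2% of its transcript with MXD3 on the same strand, so its reads are uncertain. Summed, the late endosomal members came to 104 and 104 FPKM in shFAM49B and to 116 and 119 FPKM in shCON.

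In the remainder, 6 of 11 members were tested, 1 rose and 5 did not pass, with a median log2 fold change of -0.04. The shares were 16.7% higher and 0% lower, against 26.4% and 15.8% of all tested genes. RAB40C, which like its relatives carries a SOCS box and serves as substrate adaptor of a cullin ubiquitin ligase, stood at 12.0 and 12.7 FPKM in shFAM49B and at 9.62 and 9.70 FPKM in shCON (1.28-fold higher, limma adjusted p = 0.0121). Its call was lost in TPM, relative to library reads, and without either shCON library or the second shFAM49B library (limma adjusted p 0.0603 to 0.0677 for these 3). RAB40B, of the same subgroup, stood at 3.13 and 3.43 FPKM in shFAM49B and at 3.88 and 4.87 FPKM in shCON (limma adjusted p = 0.0723). RAB39A stood at 6.20 and 4.64 FPKM in shFAM49B and at 3.76 and 4.37 FPKM in shCON (limma adjusted p = 0.109). RAB28, a ciliary RAB needed in photoreceptors, stood at 10.7 and 11.4 FPKM in shFAM49B and at 8.75 and 11.0 FPKM in shCON (limma adjusted p = 0.318). The groups of RAB28 overlapped and those of RAB39A and RAB40B did not. RAB23, a suppressor of hedgehog signalling, and RAB39B had log2 fold changes of -0.24 and -0.36 and did not pass. RAB23 shares 58.8% of its transcript with BAG2, so its reads are uncertain.

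The 18 members under the level filter were RAB3C, RAB4B, RAB6C, RAB6D, RAB7B, RAB17, RAB19, RAB27A, RAB27B, RAB30, RAB33A, RAB37, RAB38, RAB40A, RAB41, RAB42, RAB43 and RAB44, with 0 to 208 reads in a library. RAB7B, a RAB of transport from late endosomes to the trans-Golgi, stood at 0.177 and 0.218 FPKM in shFAM49B and at 1.21 and 1.56 FPKM in shCON, on 10 and 12 reads in shFAM49B and 75 and 106 reads in shCON. Its scaled read ratio was 0.142 (95% interval 0.0867 to 0.221), and when all genes with a read were tested it passed (log2 fold change -0.99, limma adjusted p = 0.0354). RAB27A, which docks exosomes and lytic granules at the plasma membrane, had 55 and 60 reads in shFAM49B and 138 and 122 reads in shCON, a scaled ratio of 0.516 (95% interval 0.411 to 0.645). It overlaps PIGBOS1 on the same strand, which fell as well (limma adjusted p = 0.00624). RAB27B had 35 and 23 reads in shFAM49B and 77 and 63 reads in shCON, a scaled ratio of 0.484 (95% interval 0.350 to 0.661). RAB38, the partner of RAB32, had 1 and 2 reads in shFAM49B and 8 and 9 reads in shCON, a scaled ratio of 0.206 (95% interval 0.0387 to 0.712). These intervals cover counting error only, and without the level filter RAB27A, RAB27B and RAB38 did not pass (limma adjusted p = 0.136, 0.212 and 0.0652). RAB19 had 1 and 10 reads in shFAM49B and none in shCON. RAB17 had 1 and 0 reads in shFAM49B and 2 and 14 reads in shCON. Its scaled ratio was 0.0729 (95% interval 0.00174 to 0.470, counting error only), and without the level filter it did not pass (limma adjusted p = 0.441). RAB6C and RAB6D share over 99% of their transcripts and RAB43 shares 88.6% with ISY1-RAB43, so the counts of these genes are uncertain.

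Close paralogs were also set against each other within a library, since a ratio inside a library does not depend on how libraries are scaled. Such a ratio can still carry a GC trend of the library where paralogs differ in GC content. Transcript GC content was 54.1% for RAB8A and 36.2% for RAB8B, and 63.5% for RAB11B and 37.2% for RAB11A. It was near equal for RAB39A (42.7%) and RAB39B (43.6%), and lower for RAB29 (45.5%) than for RAB32 (53.8%). RAB3A had 59.8%, RAB3D 52.7% and RAB3B 44.8%. RAB2B had 43.0% and RAB2A 38.8%, RAB40C 64.4% and RAB40B 52.7%. With the GC trend of each library removed, log2 fold changes were 0.16 for RAB11B and 0.12 for RAB11A, against 0.30 and -0.02 as deposited. Those of RAB8A and RAB8B were 0.14 and -0.25, against 0.26 and -0.41. The part of GC content in the shares was not tested. Shares are of the summed FPKM of a subfamily, and with 2 libraries a group no exact permutation test of a single share can give a 2-sided p below 0.333, so they are descriptions. RAB3A made up 49.8% and 51.9% of the RAB3 subfamily in shFAM49B, against 31.8% and 31.1% in shCON. RAB8A made up 64.3% and 66.9% of RAB8 in shFAM49B, against 50.5% and 54.0% in shCON. RAB2B made up 41.3% and 46.6% of RAB2 in shFAM49B, against 31.6% and 32.4% in shCON. In each of these 3 subfamilies the groups were apart, and the member named, whose share was larger in shFAM49B than in shCON, had passed upward. The shares and the calls come from the same values.

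The same held for RAB40C among RAB40 genes, at 78.5% and 77.7% in shFAM49B and 70.0% and 64.8% in shCON, and for RAB11B among RAB11A, RAB11B and RAB25, at 62.9% and 64.7% in shFAM49B and 56.5% and 56.6% in shCON. RAB39A made up 86.1% and 80.7% of RAB39 in shFAM49B, against 70.0% and 72.2% in shCON. Together with the low values of RAB32 and RAB38, RAB29 made up 99.0% and 98.6% of its subgroup in shFAM49B, against 89.8% and 89.8% in shCON. In the RAB9 and RAB27 pairs the groups overlapped. RAB9A made up 93.5% and 90.1% of RAB9 in shFAM49B, against 91.1% and 92.2% in shCON, both paralogs having fallen. RAB27A made up 67.6% and 77.6% of RAB27 in shFAM49B, against 70.4% and 72.0% in shCON. RAB6A made up 80.6% and 79.7% of RAB6A and RAB6B in shFAM49B, against 81.5% and 81.9% in shCON. RAB31, whose partner RAB22A fell, made up 89.9% and 89.5% of that pair in shFAM49B, against 84.3% and 84.5% in shCON.

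**Figure D3:**
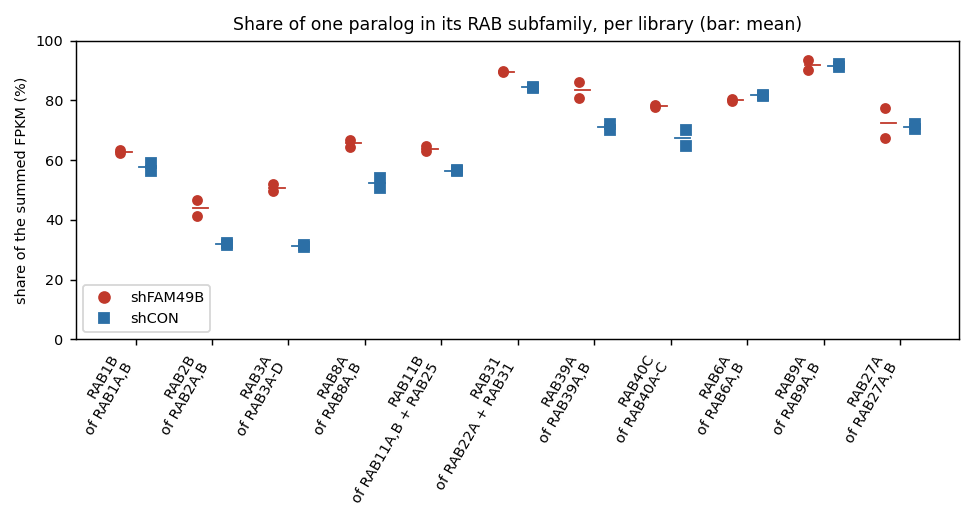
Share (%) of 1 paralog in the summed FPKM of its RAB subfamily, per library, with a bar at each group's mean, shFAM49B left of shCON. The difference is widest for RAB3A (19.4 percentage points), while the RAB9A and RAB27A groups overlap.

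GC content went weakly with the fold changes. Members that rose had a median transcript GC content of 56.9%, those that fell 41.0% and those that did not pass 44.8%. The ranges overlapped, from 39.3% (RAB4A) to 64.4% (RAB40C) for members that rose and from 36.2% (RAB8B) to 61.2% (RAB26) for those that fell. Across the 42 tested members the log2 fold change had a Spearman rho of 0.23 with GC content, and across 13769 tested genes 0.19, where the genes of a library share its preparation and depth. With the GC trend of each library removed, a setting chosen after the data were seen, 4 members were higher and 15 lower. Of all 13775 tested genes 2983 were higher and 2747 lower in that setting. RAB8A, RAB11B and RAB14 then lost their calls, with log2 fold changes of 0.14, 0.16 and -0.12, and so did RAB9B, whose log2 fold change was -0.39, against -0.46 as deposited. In the same setting RAB7A, RAB31, RAB34 and RAB40B gained a call downward. All other called members passed in the same direction with the trend removed. These were RAB3A, RAB4A, RAB2B and RAB40C upward. Downward they were RAB32, RAB25, RAB36, RAB9A, RAB21, RAB22A, RAB10, RAB8B, RAB26, RAB35 and RAB15. The part of GC content in the remaining differences was not tested.

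The proteins that run the RAB cycle were drawn from 146 genes in 4 lists, of which 130 were tested: 32 rose, 15 fell and 83 did not pass, with a median log2 fold change of 0.07. Of these genes 24.6% rose and 11.5% fell, against the 26.4% and 15.8% of all tested genes given above. In TPM 13 of the 130 were higher and 33 lower, against 1597 and 4362 of all 13775 tested genes. The list of prenylation enzymes, escorts and GDP dissociation inhibitors had 7 tested genes, of which 4 rose (57.1%) and 2 fell (28.6%). RABGGTB, the beta subunit of the geranylgeranyl transferase, stood at 30.6 and 26.7 FPKM in shFAM49B and at 14.9 and 16.0 FPKM in shCON (1.85-fold higher, limma adjusted p = 0.00256). GDI2, a GDP dissociation inhibitor, stood at 87.2 and 85.2 FPKM in shFAM49B and at 65.2 and 56.0 FPKM in shCON (1.42-fold higher, limma adjusted p = 0.00837). GDI2 did not pass without the first or the second shFAM49B library (limma adjusted p = 0.0506 and 0.0511), nor after quantile normalization (log2 fold change 0.16 against 0.51, limma adjusted p = 0.250). CHML, an escort that presents RAB proteins to the transferase, stood at 6.59 and 5.74 FPKM in shFAM49B and at 12.0 and 11.1 FPKM in shCON, 1.88-fold lower (limma adjusted p = 0.0028). CHM, the other escort, averaged 5.07 FPKM in shFAM49B and 5.08 FPKM in shCON and did not pass (limma adjusted p = 0.955).

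Of 40 tested exchange factor genes, 10 rose and 1 fell. RMC1, a subunit of the MON1-CCZ1 exchange factor for RAB7, stood at 10.7 and 10.6 FPKM in shFAM49B and at 6.66 and 7.11 FPKM in shCON (1.54-fold higher, limma adjusted p = 0.00334). DENND1A, an exchange factor for RAB35, stood at 5.28 and 5.56 FPKM in shFAM49B and at 3.61 and 3.39 FPKM in shCON (1.55-fold higher, limma adjusted p = 0.00598). TRAPPC6A, a subunit of the TRAPP complexes that activate RAB1, averaged 28.2 FPKM in shFAM49B and 18.0 FPKM in shCON (1.56-fold higher, limma adjusted p = 0.00745; 0.0523 without the second shFAM49B library). SH3BP5L, a relative of a RAB11 exchange factor, averaged 2.86 FPKM in shFAM49B and 4.52 FPKM in shCON and was the exchange factor gene that fell (limma adjusted p = 0.00693).

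Of 36 tested GTPase-activating protein genes, 7 rose (19.4%) and 2 fell (5.56%), against 26.4% and 15.8% of all tested genes. TBC1D9 stood at 7.07 and 7.01 FPKM in shFAM49B and at 13.0 and 11.9 FPKM in shCON (1.76-fold lower, limma adjusted p = 0.00232). TBC1D13, known to act on RAB35, averaged 10.9 FPKM in shFAM49B and 15.4 FPKM in shCON (1.40-fold lower, limma adjusted p = 0.00533). TBC1D1, a regulator of glucose transporter vesicles in mouse muscle, averaged 10.2 FPKM in shFAM49B and 6.65 FPKM in shCON (1.54-fold higher, limma adjusted p = 0.00407). TBC1D7, a subunit of the TSC complex, averaged 4.18 FPKM in shFAM49B and 2.98 FPKM in shCON (limma adjusted p = 0.0190), a call lost in 7 of 13 alternatives, each omission of a library among them (limma adjusted p 0.0552 to 0.108).

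Of 47 tested effector genes, 11 rose (23.4%) and 10 fell (21.3%), against 26.4% and 15.8% of all tested genes. EXOC4, an exocyst subunit that tethers secretory vesicles, stood at 12.5 and 12.1 FPKM in shFAM49B and at 5.72 and 4.62 FPKM in shCON, 2.39-fold higher (log2 fold change 1.12, limma adjusted p = 0.0022). KIF20A, a kinesin that binds RAB6 and acts in cytokinesis, stood at 24.4 and 25.5 FPKM in shFAM49B and at 15.0 and 14.9 FPKM in shCON (1.67-fold higher, limma adjusted p = 0.00188). SYTL5, an effector of RAB27, stood at 4.94 and 4.99 FPKM in shFAM49B and at 9.37 and 9.89 FPKM in shCON (1.94-fold lower, limma adjusted p = 0.00181). WDR44, a RAB11 effector, averaged 9.64 FPKM in shFAM49B and 15.2 FPKM in shCON (1.57-fold lower, limma adjusted p = 0.00316). For each of these 4 genes the groups were apart by several times their spread.

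**Figure D4:**
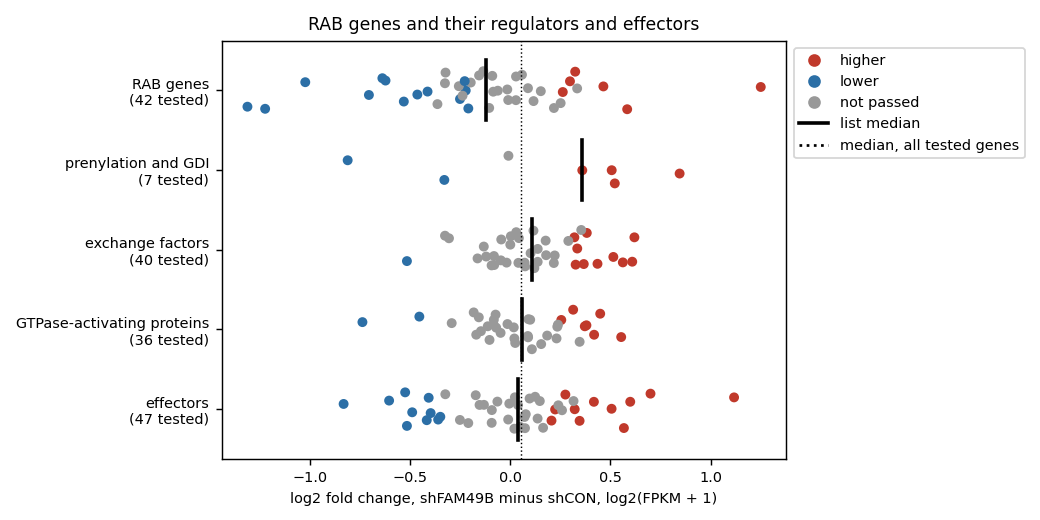
Log2 fold change (shFAM49B minus shCON, on log2(FPKM + 1)) of each tested gene, for the RAB genes and the 4 lists of regulators and effectors, with the list median as a line and the median of all tested genes, 0.05, dotted. The RAB genes have a median of -0.12 and the prenylation and inhibitor list, with 7 genes, one of 0.36.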

How the data were processed

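The labels name 4 libraries of total RNA made with the NEBNext Ultra kit, 2 per group, and group and replicate number come from the sample titles. The authors deposited FPKM per gene, with gene coordinates and lengths per the file headers; the sources used here give no aligner or counter. Mouse builds, GRCm38 and mm10, stand in the submitters' processing notes, but all 58735 identifiers are human and have the coordinates of GENCODE 29 (GRCh38), which are printed here. FPKM times length gave whole multiples of 1 read in 100% of values above 0 (tolerance 0.001), and the deposited scaling equals median ratios over 20791 genes. At this depth 1 read in a 1 kb gene is 0.0541 to 0.0668 FPKM.

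The deposited FPKM values were tested as log2(FPKM + 1) with limma 3.58.1 (R 4.3.3), with empirical Bayes moderation along the mean, on genes averaging 1 FPKM or more over the libraries, 2-sided, with Benjamini-Hochberg adjustment over all 13775 and a threshold of 0.05. Fold changes on this scale understate those of low genes, while folds are ratios of mean FPKM. Residual degrees of freedom were 2, moderated with a prior of 3.32. Separate cultures are not stated in the labels, and p-values therefore measure only how far these samples spread, possibly for technical reasons; replicates differed by a chi-square of 3.48 (shFAM49B) and 3.90 (shCON) per gene, more than counting noise. The procedure was also run on simulated reads in which few genes changed and the scaling was exact. That run cannot decide how calls divide where many genes change, as here. Alternatives were the pseudocount, the level filter, 4 scalings, limma-voom on recovered reads, a replicate block, each library left out and removal of a GC trend, the last chosen after seeing the data.

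Members, compartments and the lists of regulators were chosen with earlier results of these data known. Named are members that passed, up to 3 abundant members per compartment that did not, and up to 4 passing genes of smallest p per regulator list, of which 1 gene is not reported here; CHM, RAB7B, RAB19, RAB27A, RAB27B, RAB38 and the RAB5 genes were added after their values were seen.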

Additional observations from a re-analysis of the deposited data

How the results depend on the processing

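No call of a RAB gene or of a regulator chosen by the naming rule turned its direction in any of the 14 alternatives, and 8 of the 19 called members and 13 of the 16 regulators chosen by the naming rule passed in all in which they were tested. Higher members numbered 6 as deposited, 8 at a mean of at least 5 FPKM and 8 in limma-voom. They numbered 3 in TPM and 3 relative to library reads. Over all tested genes the higher ones numbered 3642, 3187, 4286, 1597 and 1722 in the same order. Lower members numbered 13 as deposited, 7 without a level filter and 6 at a mean of at least 5 FPKM. They numbered 18 in limma-voom, 26 in TPM and 26 relative to library reads. Over all tested genes the lower ones numbered 2170, 1378, 1322, 2793, 4362 and 4173 in the same order. With a library left out both counts were smaller, for the members and for all tested genes. Regulators higher numbered 32 as deposited, 17 without the filter, 13 in TPM, 13 relative to library reads and 12 to 20 with a library left out; those lower numbered 15, and 9, 33, 30 and 7 to 13 in the same order. The stricter filter tests fewer genes (26 members) and the absence of one tests more (60 members); for the other shifts the cause was not tested. The share of higher genes among all calls was 62.7% as deposited, 26.8% in TPM, 29.2% relative to library reads, 52.0% after quantile normalization, 52.5% after median ratios over tested genes and 52.1% with the GC trend removed. The members' median log2 fold change, -0.12 as deposited, was -0.13 with a pseudocount of 0.1, -0.10 without the filter, -0.039 at 5 FPKM, -0.37 in TPM, -0.32 relative to library reads, -0.25 after quantile normalization, -0.18 after median ratios, -0.13 in limma-voom, -0.12 with the GC trend removed and -0.14 to -0.12 with a library left out. Among named members that did not pass, 8 turned direction somewhere, by at most 0.19. In TPM, RAB13 stood at -0.19, RAB1B at -0.022, RAB24 at -0.10, RAB28 at -0.075 and RAB29 at -0.18; relative to library reads they stood at -0.15, -0.0025, -0.077, -0.054 and -0.16. After quantile normalization RAB1B stood at -0.044, RAB20 at 0.067 and RAB29 at -0.087, and after median ratios RAB13 at -0.025 and RAB29 at -0.0077. With the GC trend removed RAB11A stood at 0.12, RAB13 at -0.080, RAB1A at 0.022, RAB24 at -0.018 and RAB29 at -0.022. With a library left out RAB13 ranged from -0.13 to 0.18 and RAB20 from -0.13 to 0.11. Replicate numbers did not pair the libraries (correlation of same-numbered deviations -0.01), and with the replicate block 6 members were higher and 11 lower, RAB9B, RAB14, RAB15 and RAB35 losing their calls; the regulators numbered 31 higher and 16 lower, and the median was -0.12. Members under the filter, with at most 208 reads in a library, allow only large differences to be seen.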
